A study of Mus musculus with 12 samples.

Results

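POL5551 blocks CXCR4, a chemokine receptor, and haematopoietic stem cells of mice infused with it were compared with those of mice given granulocyte colony-stimulating factor (G-CSF) for 5 days. The comparison uses the 6 arrays whose labels name these treatments, of 12 in the series, and runs across 33037 genes. POL5551 was infused continuously for 2 weeks at 100 mg/kg per day into 3 male mice. G-CSF was injected at 100 ug/kg every 12 h, 9 times over 5 days, into 3 other male mice. The remaining arrays come from 3 mice given 4 injections of G-CSF over 2 days and from 3 sham-operated mice. They enter the pooled estimate of the spread, and their levels are given for orientation. All cells were taken from bone marrow enriched for Kit-bearing progenitors, then sorted as lineage-negative, Sca-1 and Kit positive cells with the SLAM phenotype, a usual definition of mouse stem cells, and each mouse gave 1 single-colour Agilent array. The treatments differ in agent, route, surgery and length, so no difference below can be assigned to CXCR4 or to G-CSF alone, and the labels name neither the strain nor the age of the mice. In bulk samples, fewer cells expressing a gene and less RNA per cell cannot be told apart.

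CXCL12, made by stromal cells of the marrow, holds stem cells in their niche through CXCR4, and antagonists of this receptor release them into the blood. G-CSF also mobilizes stem cells, and acts through a receptor carried by myeloid and progenitor cells, whose signal runs through JAK kinases and STAT3 and is limited by SOCS3. Both are used to move stem cells into the blood, and the comparison asks how the cells that stay in the marrow differ in expression under each.

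Levels are the log2 signal of a gene's probe minus the 75th percentile of its array, so that 0 is the 75th percentile. Differences are the mean level after POL5551 minus that after 5 days of G-CSF, with the standard error (SE) of the limma fit, and a gene was called when its p, adjusted over all genes, was below 0.05. The 75th percentile of the signal ran from 4025.4 to 5045.8 on the POL5551 arrays and from 2405.3 to 6810.0 on the 5-day G-CSF arrays, and no spot was saturated. Of the probes, 75.26% to 78.64% were well above background after POL5551 and 76.45% to 85.57% after G-CSF. Mouse 3 of the 5-day G-CSF group stood apart: its rank correlations with the other 5 arrays were 0.892 to 0.935, against 0.944 to 0.962 among those 5. Mouse 1 of the sham group also stood apart, with a median level of -1.82 for genes that blood cells do not use, against -5.50 to -2.68 on the other arrays. Precision is limited by having 3 arrays in a group.

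The sort was checked on its markers. Kit, the receptor of stem cell factor, had levels of 2.49, 2.84 and 2.73 after POL5551 and of 2.37, 2.43 and 2.39 after 5 days of G-CSF. Slamf1, the SLAM marker CD150 of stem cells, had levels of -0.62, -1.59 and -0.64 after POL5551 and of -0.92, -2.09 and -2.45 after G-CSF. Both were well above background on all 6 arrays, as were Ly6a, which encodes Sca-1, and Cd48, which the usual SLAM gate selects against.

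Of 33037 genes, 20 were called, which is 0.0605% of those tested. All 20 were lower after POL5551 (0.0605%) and none was higher (0.0%). By limma's unadjusted p below 0.05, 649 genes were higher (1.96%) and 3335 lower (10.1%), and the smallest adjusted p of a higher gene was 0.0848. On all 3 POL5551 arrays above all 3 G-CSF arrays were 9.45% of genes, and below them 16.4%. Only 8 of the 20 have a gene symbol. These are a cytokine receptor chain, a secreted protease inhibitor, a mucin, a pair of proteins best known from photoreceptors, an amino acid transport partner, an olfactory receptor and a membrane protein.

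Csf2rb2, on chromosome 15, encodes the beta chain of the mouse receptor for interleukin 3. It had levels of 0.10, -0.04 and 0.21 in POL5551 mice, against 2.34, 2.27 and 2.19 in 5-day G-CSF mice, so that the groups did not overlap. Its level was 2.18 ± 0.282 (SE) lower on the log2 scale after POL5551 than after 5 days of G-CSF, a fold of 4.52 (adjusted p = 0.0247). The sham arrays had levels of -0.20, -0.76 and -0.21 and the 2-day G-CSF arrays 1.31, 1.17 and 0.81, so the POL5551 level lay nearer to sham. The 60-base probe lies at chr15:78113126-78113185 of mm9. Csf2rb, the neighbouring and closely similar gene of the chain that interleukin 3, interleukin 5 and GM-CSF receptors share, was not called. Its levels were 0.93, 1.60 and 0.64 after POL5551 and 2.13, 1.99 and 2.42 after G-CSF, a difference of -1.12 ± 0.361 (SE, adjusted p = 0.36), and its other 3 probes ran from -1.94 to 0.15. Whether the Csf2rb2 probe also binds Csf2rb RNA was not tested. The alpha chains Il3ra, with a difference of -0.06, and Csf2ra, with 0.40, were not called.

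**Figure D1:**
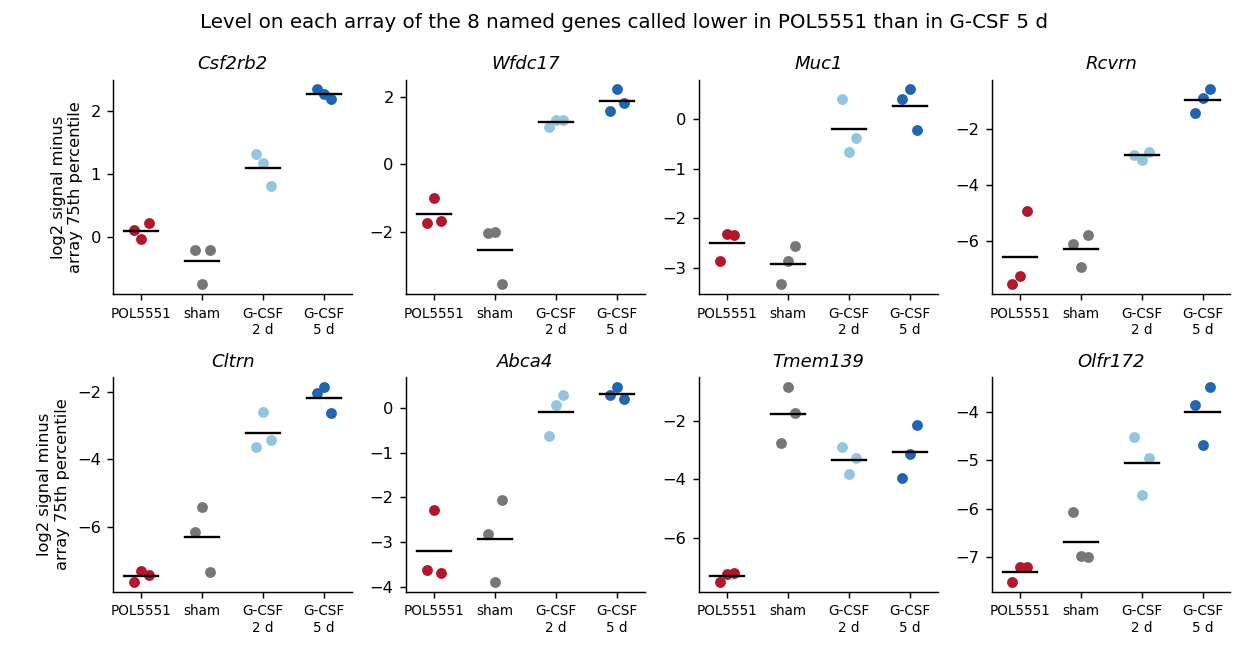
Level of the 8 called genes that have a symbol on each of the 12 arrays (y axis, log2 signal minus the array's 75th percentile), by group (x axis). Points are mice and bars are means of 3 mice. On every panel the POL5551 points lie below the 5-day G-CSF points. For Csf2rb2, Wfdc17, Muc1, Rcvrn and Abca4 they lie at or near the sham points, and for Tmem139 below the sham points too.

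Wfdc17, on chromosome 11, encodes a small secreted protein of the WAP family, many of which inhibit proteases, and is known from activated macrophages. Its levels were -1.75, -1.0 and -1.67 in POL5551 mice and 1.58, 2.21 and 1.83 in 5-day G-CSF mice, with no overlap. The level after POL5551 was 3.35 ± 0.43 (SE) lower, a fold of 10.2 (adjusted p = 0.0247). Muc1, on chromosome 3, encodes a mucin of the cell surface. It had levels of -2.87, -2.33 and -2.33 in POL5551 mice and of 0.40, 0.59 and -0.23 in G-CSF mice. The former were lower by 2.77 ± 0.381 (SE), a fold of 6.81 (adjusted p = 0.037). For both genes every POL5551 array was well above background, so that the low side is a measured level. Sham levels were -2.04, -2.01 and -3.56 for Wfdc17 and -3.34, -2.87 and -2.57 for Muc1.

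Rcvrn, on chromosome 11, encodes recoverin, a calcium sensor of photoreceptors. It had levels of -7.55, -7.27 and -4.93 after POL5551, where only mouse 3 was well above background, and of -1.44, -0.87 and -0.58 after 5 days of G-CSF. The fitted difference was -5.62 ± 0.609 (SE, adjusted p = 0.00946), and its size is uncertain because 2 of the 3 POL5551 values were not well above background. Abca4, on chromosome 3, encodes a retinoid transporter of photoreceptors, with levels of -3.61, -2.29 and -3.67 after POL5551 and of 0.28, 0.45 and 0.20 after G-CSF. It fell by 3.50 ± 0.509 (SE, adjusted p = 0.0418), and its 2 other tested probes gave -3.14 and -0.03, so its probes disagree. Both genes were low in sham cells, with levels of -6.12, -6.95 and -5.78 for Rcvrn and of -2.81, -3.88 and -2.06 for Abca4, and intermediate or high after 2 days of G-CSF, with -2.92, -3.10 and -2.83 for Rcvrn and -0.63, 0.06 and 0.29 for Abca4.

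In 3 named genes no POL5551 array was well above background, and only a bound on the fold can be given. Such a bound is the mean of the brighter group over the dimmest signal that passed detection on each array of the other group. Cltrn, on chromosome X, encodes collectrin, which helps amino acid transporters reach the membrane in the kidney. It had levels of -7.64, -7.31 and -7.44 after POL5551 and of -2.04, -1.86 and -2.62 after G-CSF, a level at least 8.68-fold lower with an adjusted p of 0.0074. Tmem139 lies on chromosome 6, with levels of -7.50, -7.22 and -7.20 after POL5551 and of -3.96, -3.14 and -2.14 after G-CSF, at least 4.63-fold lower (adjusted p = 0.0247). Unlike Cltrn it was highest in sham cells, with levels of -2.78, -0.86 and -1.73, so that all POL5551 arrays lay below sham while the G-CSF arrays overlapped it. The odorant receptor gene Olfr172, on chromosome 16, was at least 2.45-fold lower (adjusted p = 0.0247), with levels of -7.53, -7.22 and -7.21 after POL5551 and of -3.84, -4.67 and -3.48 after G-CSF.

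The other 12 called features are RIKEN clones, gene models, an expressed sequence tag, an unnamed probe and intergenic intervals, and were called outside the naming rule. Of the 20, 14 had no POL5551 array well above background, and 5 were well above background on all 6 arrays. Dim probes were shifted as a whole. Over all genes the median difference was -0.32 (-0.315), and from the dimmest to the brightest of 4 equal sets of genes by mean level it was -0.697, -0.438, -0.232 and 0.081, with 14, 2, 2 and 2 of the calls. With each array scaled to its median in place of its 75th percentile the median over all genes was -0.043. The median level of olfactory, vomeronasal, taste and keratin-associated genes, which blood cells do not use, was -4.91 ± 0.545 after POL5551 and -3.98 ± 0.409 after 5 days of G-CSF (SD, n = 3 each; exact permutation test, two-sided, p = 0.1, the smallest that 3 against 3 arrays allow). Of these genes 1067 of 1153 tested had a negative difference, and 1 of the 20 calls, Olfr172, is one of them. With this median as a covariate of each array no gene was called (2376 at an unadjusted p below 0.05). The difference was then -2.08 for Csf2rb2, -3.03 for Wfdc17 and -2.95 for Muc1, against -2.18, -3.35 and -2.77 without it. The covariate itself separates the groups, with -5.50 to -4.42 on the POL5551 arrays and -4.26 to -3.51 on the 5-day G-CSF arrays. A fit with it therefore cannot tell a shift of dim signal from a treatment difference, here and wherever it is used below.

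**Figure D2:**
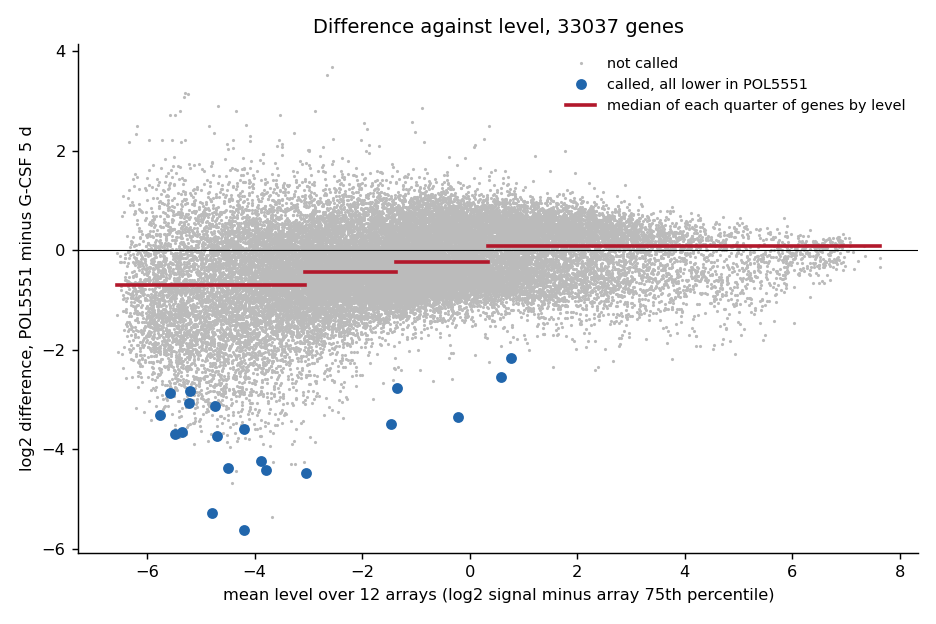
Log2 difference, POL5551 minus 5 days of G-CSF (y axis), against the mean level over 12 arrays (x axis) for 33037 genes. Blue points are the 20 called genes, all below 0, and red bars are the medians of 4 equal sets of genes by level, from -0.697 in the dimmest to 0.081 in the brightest.

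The slides on which the arrays lay were partly bound to the groups. POL5551 mice lay on slides 1, 2 and 5 and 5-day G-CSF mice on slides 4, 5 and 6, so only slide 5 held both, with POL5551 mouse 3 and G-CSF mouse 2. Within that slide the difference was -2.06 for Csf2rb2, -3.88 for Wfdc17, -2.93 for Muc1, -4.06 for Rcvrn and -4.12 for Abca4, from 1 array each, all well above background. With slide as a fixed block no gene was called (777 at an unadjusted p below 0.05), since the comparison then rests on that pair. With slide as a random block 20 genes were called.

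The calls depend on single arrays. Without POL5551 mouse 1 or without POL5551 mouse 2 no gene was called (2163 and 3362 at an unadjusted p below 0.05), and without POL5551 mouse 3 10 were. Without G-CSF 5-day mouse 1, 2 or 3 there were 5, 9 and 1 calls. Without G-CSF 2-day mouse 3 there were 8. Without sham mouse 1, 2 or 3, which leaves the differences as they are and changes only the pooled spread, there were 94, 54 and 42 calls, of which 12, 2 and 0 were higher. Over the 12 fits that leave out an array Csf2rb2 stayed between -2.24 and -2.11, Wfdc17 between -3.59 and -3.18 and Muc1 between -3.01 and -2.59. Abca4, also well above background on all arrays compared, ranged more widely, from -3.95 to -3.26. Over the 26 of 27 alternatives that give 1 value per gene, each of these genes kept a negative difference. Csf2rb2 was called in 15, Wfdc17 in 16, Muc1 in 12 and Abca4 in 10.

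One of the unnamed calls lies in the imprinted Dlk1-Meg3 region of chromosome 12, where Dlk1 and Rtl1 are expressed from the paternal copy and the long non-coding RNAs Meg3, Rian and Mirg from the maternal copy. The choice of the region was made with its values known. The called feature is the forward strand of the interval chr12:110842154-110883594 (mm9), with levels of -0.92, -0.30 and -0.14 after POL5551 and of 2.06, 2.17 and 2.08 after 5 days of G-CSF. The groups did not overlap, and the level after POL5551 was 2.56 ± 0.356 (SE) lower, a fold of 5.88 (adjusted p = 0.0379). Sham levels of the interval were -1.035, -0.489 and -1.373, near those after POL5551. A probe of Rian shares 21 bases with the probe of that interval on the same strand, and both sequences are printed, with the shared bases in capitals, because the called feature and a named gene are read there by overlapping probes.
Interval probe, chr12:110865304-110865363 of mm9: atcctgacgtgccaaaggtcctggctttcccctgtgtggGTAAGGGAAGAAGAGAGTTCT
Rian probe, chr12:110865343-110872442 of mm9, with a gap: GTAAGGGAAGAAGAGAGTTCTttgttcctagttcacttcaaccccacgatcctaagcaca
This Rian probe had a difference of -3.49 and was not called.

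From the first probe of Dlk1 to the last of Mirg, 289.2 kb, 34 probes were tested, and all 34 had a negative difference, from -3.49 to -0.58 with a median of -1.61. Of all 49241 probes tested 61.3% had a negative difference, with a median of -0.24. In the region 24 of 34 probes had an unadjusted p below 0.05, against 10.8% of all probes, and probes of one transcript are not independent. Meg3 had levels of 0.17, 1.56 and 0.40 after POL5551 and of 1.90, 2.41 and 1.90 after G-CSF, with no overlap, and its 5 probes had differences from -2.47 to -1.21. Rian, by its brightest probe, had levels of -1.30, -0.04 and -0.99 after POL5551 and of 0.89, 0.43 and 1.66 after G-CSF. Mirg, a transcript that hosts many microRNAs, had levels of -0.96, 0.01 and -0.61 after POL5551 and of 0.71, 1.01 and 1.33 after G-CSF. None of these 3 genes was called, with adjusted p of 0.307 for Meg3, 0.229 for Rian and 0.254 for Mirg.

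In the paternally expressed genes the groups overlapped at the brightest probe. Dlk1, which encodes a membrane protein of the Notch ligand type, had levels of -0.82, 1.43 and -0.90 after POL5551 and of 1.76, 1.60 and 0.93 after G-CSF, where POL5551 mouse 2 lay within the G-CSF range, and its other probe had a difference of -2.80. Rtl1, which derives from a retrotransposon, had levels of -1.38, -1.80 and -2.10 after POL5551 and of -0.56, -1.78 and -0.42 after G-CSF, and overlapped. Averaged over the 24 genes and intervals of the region, the level was -2.30, -1.71 and -1.99 in POL5551 mice, -0.77, -1.72 and -1.65 in sham mice, -0.36, -0.24 and 0.06 in 2-day G-CSF mice and -0.59, -0.51 and -0.40 in 5-day G-CSF mice. The POL5551 values of this average lay below all 6 G-CSF values and, apart from mouse 2, below the sham values. Single genes differed in their place beside sham. Mean levels after POL5551 and in sham mice were -0.10 and -1.45 for Dlk1, 0.71 and 0.19 for Meg3, and -0.455 and -0.966 for the called interval. For Rian, Mirg and Rtl1 the POL5551 mean was below the sham mean. Without G-CSF 5-day mouse 3 all 24 remained negative, with a median of -1.42, and with the level of genes not used by blood cells as a covariate 23 of 24 were negative, with a median of -1.0.

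**Figure D3:**
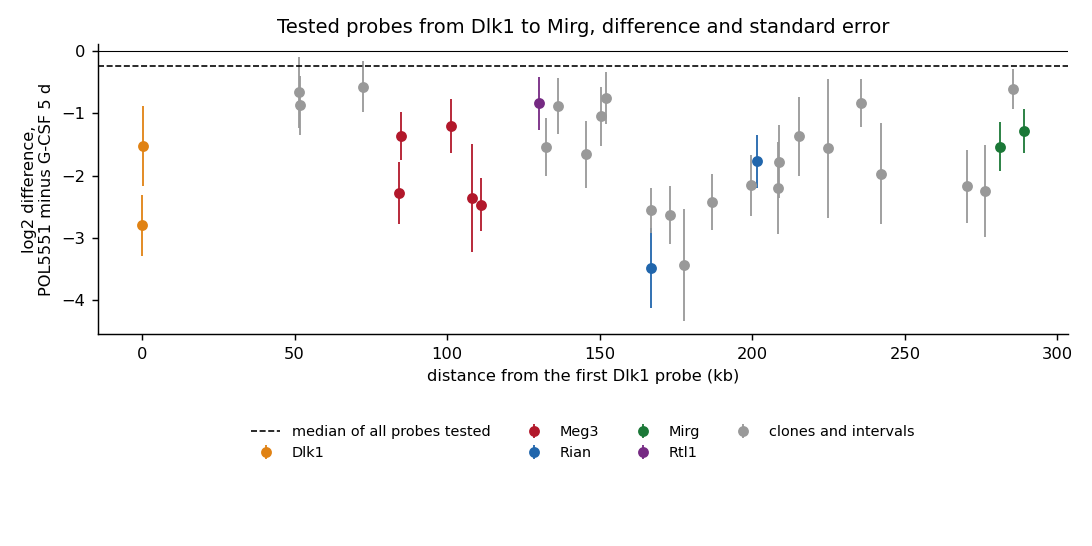
Log2 difference, POL5551 minus 5 days of G-CSF, with its standard error (y axis), of the 34 tested probes from Dlk1 to Mirg, by distance from the first Dlk1 probe (x axis, kb). All 34 points lie below 0 and below the dashed line, the median of all probes tested at -0.24.

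No gene was called higher after POL5551, and 8 genes with the smallest p in that direction are given as values. Cyp26b1, an enzyme that degrades retinoic acid, had levels of 0.35, 0.42 and 1.49 after POL5551 and of -1.79, -2.32 and -2.19 after 5 days of G-CSF, a difference of 2.85 ± 0.473 (SE, adjusted p = 0.0848). Ebi3, a subunit of interleukin 27 and interleukin 35, had levels of 0.57, 0.99 and 0.36 after POL5551 and of -1.37, -1.74 and -2.12 after G-CSF, a difference of 2.38 ± 0.417 (SE, adjusted p = 0.101). Neither gene's groups overlapped, and each gene was called higher in 2 of the 12 fits that leave out an array. Sham levels were -1.88, -0.22 and -0.58 for Cyp26b1, where mouse 1 lay within the G-CSF range, and -1.26, 0.41 and -0.13 for Ebi3, where mouse 2 lay within the POL5551 range. Il27, which encodes a partner of Ebi3, had a difference of -0.20, and Il12a, which encodes another, -0.34, and neither was called.

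Stap2, an adaptor protein of STAT signalling, had levels of -4.72, -2.81 and -3.18 after POL5551 and of -6.29, -6.97 and -6.86 after 5 days of G-CSF, where no array was well above background. It was at least 3.27-fold higher (adjusted p = 0.0848), and was called higher under median scaling, under quantile normalization, in the authors' values and without sham mouse 1. Its 2-day G-CSF levels, -3.68, -3.55 and -4.58, lay near those after POL5551. The sham levels, -6.09, -7.04 and -7.04, lay near those after 5 days of G-CSF. Dok2, an adaptor that restrains signalling of tyrosine kinases, had levels of 1.64, 2.05 and 1.66 after POL5551 and of -0.39, 0.20 and -1.18 after G-CSF, a difference of 2.24 ± 0.464 (SE, adjusted p = 0.157), with 0.52 at its other probe. Dok2 was called higher in 1 of the 12 fits that leave out an array. Fbp1, an enzyme of gluconeogenesis, had levels of -1.75, -0.71 and -1.53 after POL5551 and of -2.93, -2.99 and -3.78 after G-CSF, a difference of 1.90 ± 0.384 (SE, adjusted p = 0.149). For Fbp1 both the sham levels, -3.50, -3.19 and -3.32, and the 2-day G-CSF levels, -2.96, -3.79 and -3.04, lay with those of 5 days of G-CSF. The other 3 were Abcg3, a transporter, with a difference of 2.81, St3gal5, which makes the ganglioside GM3, with 1.95, and Zfp57, a zinc finger protein that keeps methylation at imprinted regions, with 1.47 at its brighter probe and -0.22 at the other.

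**Figure D4:**
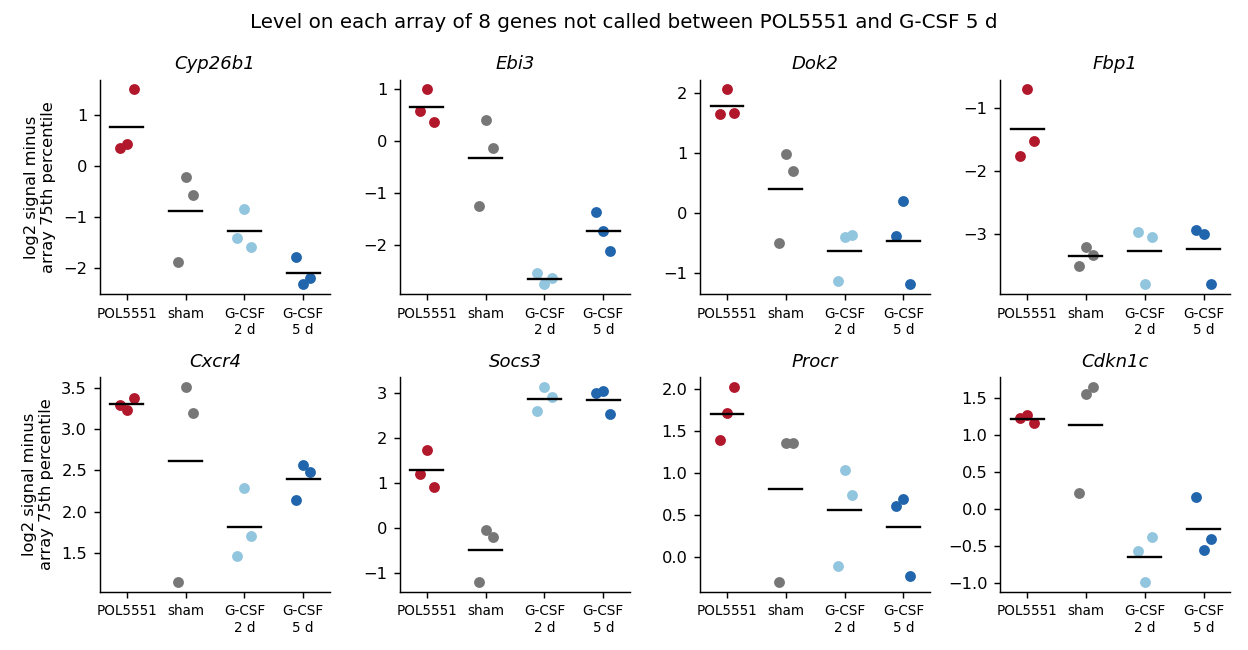
Level of 8 genes that were not called, on each of the 12 arrays (y axis, log2 signal minus the array's 75th percentile), by group (x axis). Points are mice and bars are means of 3 mice. The POL5551 points lie above the 5-day G-CSF points in 7 panels and below them for Socs3.

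None of 20 genes chosen from the sort gate, the CXCR4 and G-CSF receptor axes, adhesion and egress, and markers of stem, progenitor and dividing cells was called. Cxcr4 itself had levels of 3.29, 3.24 and 3.38 after POL5551 and of 2.14, 2.57 and 2.48 after 5 days of G-CSF. The groups did not overlap, with a difference of 0.91 ± 0.532 (SE, adjusted p = 0.457), and sham mice spanned both, with levels of 1.14, 3.51 and 3.20. Cxcl12, the ligand, had levels of 2.70, 1.13 and 2.86 after POL5551 and of 2.65, 0.74 and 2.36 after G-CSF, a difference of 0.31 (adjusted p = 0.871). Cxcl12 is a marker of stromal cells, and in both groups mice 1 and 3 were higher than mouse 2. Ackr3, which also binds CXCL12, was detected above background on 1 POL5551 array and 2 G-CSF arrays. Dpp4, a protease that cleaves CXCL12, had a difference of -0.14.

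Adhesion molecules had differences of both signs, and of 48 genes of the CXCR4 axis, adhesion and retention 30 were positive, with a median of 0.263. Itga4, a chain of the integrin VLA-4, had a difference of 0.70, and its other 5 probes ran from -0.89 to 0.79. Cd44, a hyaluronan receptor, had 0.63, with its other 2 probes at -1.28 and 0.94, so the probes of both genes disagree in sign. Itgb2, the beta chain of leukocyte integrins, had 0.99 (adjusted p = 0.393). Selp, which encodes P-selectin, had levels of 0.30, 0.12 and 0.87 after POL5551 and of 2.34, 2.41 and 2.10 after G-CSF. It was not called, with a difference of -1.86 ± 0.325 (SE, adjusted p = 0.101), and its other 2 probes gave -1.86 and -1.40. Selp levels in sham mice were 0.23, 0.28 and -0.39, near those of POL5551 mice. Itga2b, the platelet integrin CD41, had a difference of -1.05 (adjusted p = 0.291).

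The receptor of G-CSF, Csf3r, had levels of 4.71, 5.00 and 4.96 after POL5551 and of 4.91, 5.00 and 5.16 after 5 days of G-CSF, a difference of -0.13 (adjusted p = 0.856). Socs3, a feedback inhibitor of this receptor and a target of STAT3, had levels of 1.21, 1.74 and 0.92 after POL5551 and of 3.00, 3.04 and 2.53 after G-CSF. The groups did not overlap, with a difference of -1.57 ± 0.379 (SE, adjusted p = 0.232), and the sham levels of -1.21, -0.05 and -0.20 lay below both. Pim2, a survival kinase induced by STAT proteins, had a difference of -1.37 (adjusted p = 0.414), its relative Pim1 -0.62, and the feedback inhibitors Cish, Socs1 and Socs2 0.96, 0.48 and 0.26, none of them called. Of the 30 genes of the list of the G-CSF receptor and STAT feedback, 16 had a positive and 14 a negative difference, with a median of 0.11.

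Promoters are shown for Csf2rb2, the called cytokine receptor gene, and Socs3, the best known STAT3 feedback target, since in both the groups did not overlap and both windows hold the STAT motif TTCNNNGAA. The motif reads the same on both strands and is in capitals. Each window runs from 250 bases before to 50 after the gene start, 5′ to 3′ on the gene's strand, from RefSeq on GRCm38.p6.
Csf2rb2, chr15:78305672-78305971, minus strand: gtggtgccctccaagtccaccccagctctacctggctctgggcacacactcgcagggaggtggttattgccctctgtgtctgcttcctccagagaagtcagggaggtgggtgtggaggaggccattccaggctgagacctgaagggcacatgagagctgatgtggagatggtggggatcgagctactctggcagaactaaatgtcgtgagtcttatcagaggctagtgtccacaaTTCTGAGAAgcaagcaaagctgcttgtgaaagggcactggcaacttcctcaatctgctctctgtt
Socs3, chr11:117969317-117969616, minus strand: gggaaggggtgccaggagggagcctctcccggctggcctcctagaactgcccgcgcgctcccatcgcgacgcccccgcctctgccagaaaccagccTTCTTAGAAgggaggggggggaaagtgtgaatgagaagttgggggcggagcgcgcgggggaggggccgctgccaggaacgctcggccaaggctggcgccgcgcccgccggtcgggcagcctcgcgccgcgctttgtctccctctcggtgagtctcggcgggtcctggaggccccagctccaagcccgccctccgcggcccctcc
The motif starts 15 bases before the gene start in Csf2rb2 and 154 bases before it in Socs3. Of 32851 promoter windows of 300 bases, 2726 (8.3%) hold it. Of the 8 called genes with a symbol 7 have a window, and Csf2rb2 is the only 1 with the motif, and of the 8 uncalled higher genes 7 have a window and 0 hold it. A match of letters is no evidence of binding.

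The 22 pathway lists and 12 marker lists were described by counts and medians, beside the median of all genes, -0.32 (-0.315), of which 35.4% were higher. Of the pathway lists 18 had a median above 0 and 21 a median above that of all genes. Only 1 list held a called gene, the cytokine receptors with Csf2rb2. The pathway lists differ in level. Median levels of 2.012 for the respiratory chain and 2.139 for the proteasome lie in the brightest of the 4 sets of genes, with a median difference of 0.081. Those of 0.082 for mitochondrial ribosomal proteins and 0.188 for type I interferon lie in the next set, with -0.232. Whether level accounts for the list medians was not tested.

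**Figure D5:**
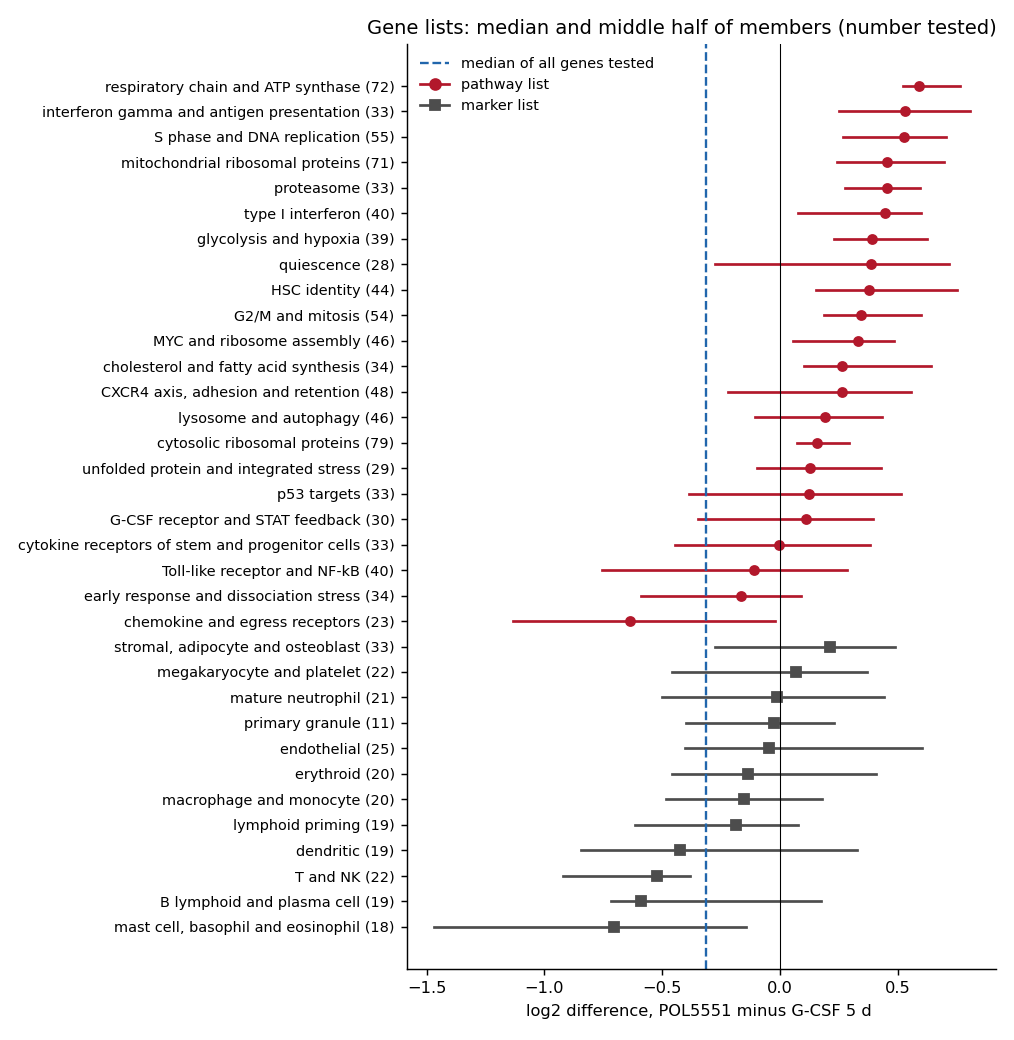
Median log2 difference, POL5551 minus 5 days of G-CSF (x axis), of the members of 22 pathway lists (red circles) and 12 marker lists (grey squares), with lines over the interquartile range of the members. The respiratory chain is at the top with 0.591 and the mast cell, basophil and eosinophil markers at the bottom with -0.703. The dashed line is the median of all genes.

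Among the lists, the respiratory chain and ATP synthase had the largest share of positive differences. Of 72 genes of the respiratory chain and ATP synthase 71 had a positive difference, with a median of 0.591, and 6 had an unadjusted p below 0.05, with none called. Ndufa8, a subunit of complex I, had levels of 0.44, 1.16 and -0.32 after POL5551 and of -0.52, -0.64 and -1.71 after 5 days of G-CSF, a difference of 1.38 (adjusted p = 0.394), and Uqcrfs1, the iron-sulphur protein of complex III, had 0.95 (adjusted p = 0.4), with -0.49 at its other probe. The one below 0, Atp5g1, had -0.57, with 0.59 and 0.64 at its other 2 probes. Of 71 mitochondrial ribosomal proteins 65 were positive, with a median of 0.455, and of 33 proteasome subunits 32, with a median of 0.453. Of 39 genes of glycolysis and hypoxia 34 were positive, with a median of 0.391, among them Hif1a, the oxygen-regulated factor, with 1.21 and -1.04 at its other probe, and Ddit4, an inhibitor of mTORC1 induced by hypoxia, with 1.66 (adjusted p = 0.379). Without 1 array the median of the respiratory chain ran from 0.480 to 0.737, but with the level of genes not used by blood cells as a covariate it was 0.066, and within slides 0.1. The proteasome then had -0.138 and 0.028, and mitochondrial ribosomal proteins -0.035 and 0.068. Glycolysis and hypoxia had -0.083 under the covariate and 0.285 within slides.

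Stem cell genes lay above the median of all genes too. Of 44 genes of stem cell identity 35 had a positive difference, with a median of 0.377, and 19 had all POL5551 arrays above all G-CSF arrays, against 9.45% of all genes. That separation was also found in 39 of 72 genes of the respiratory chain and 31 of 71 mitochondrial ribosomal proteins. The median level of the stem cell list was 1.211, within the brightest of the 4 sets by level, where 54.7% of genes were higher. Procr, the protein C receptor that marks stem cells, had levels of 1.39, 1.71 and 2.02 after POL5551 and of 0.61, 0.69 and -0.23 after G-CSF, a difference of 1.35 ± 0.5 (SE, adjusted p = 0.392). Fgd5, whose expression marks stem cells, had a difference of 1.11, with 1.44 at its other probe, Eya2, a transcriptional coactivator, 1.31, and Angpt1, a ligand of the receptor Tie2, 0.73. Mecom, a transcription factor that stem cells need, went the other way, with -0.94 and other probes from -0.86 to 1.07. None of these genes was called.

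Genes of quiescence and of division were both above the median of all genes. Cdkn1c, the cell cycle inhibitor p57, had levels of 1.23, 1.28 and 1.16 after POL5551 and of 0.16, -0.56 and -0.41 after 5 days of G-CSF, a difference of 1.49 ± 0.403 (SE, adjusted p = 0.291). Ndn, which encodes necdin, a restraint on the stem cell cycle, had 0.96, and Gfi1, a repressor that limits stem cell division, 1.28. Smad7, of the same list, went the other way, with -0.94, no overlap of the groups and -0.05 at its other probe. Over 28 quiescence genes 17 were positive and 11 negative, with a median of 0.386. Ccnd1, the cyclin D1 gene, had levels of 1.02, 0.21 and 0.76 after POL5551 and of -1.23, -2.11 and -2.42 after G-CSF, a difference of 2.58 (adjusted p = 0.295), and was called higher without sham mouse 1. Of 55 genes of S phase 46 were positive, with a median of 0.529, among them Mcm6, a subunit of the replicative helicase, with 0.76, and of 54 genes of mitosis 44, with a median of 0.346. Mki67, a marker of dividing cells, had levels of 0.90, 1.95 and 0.45 after POL5551 and of 0.90, 0.82 and 0.51 after G-CSF, which overlapped. Under the covariate of genes not used by blood cells the medians were 0.008 for stem cell identity, 0.108 for quiescence, 0.057 for S phase and 0.072 for mitosis. Within slides they were 0.261, 0.138, 0.008 and, for mitosis, -0.195.

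Most interferon genes had positive differences, with none called. Of 40 type I interferon genes 31 were positive, with a median of 0.445, and of 33 genes of interferon gamma and antigen presentation 26, with a median of 0.531. Rsad2, an antiviral enzyme, had levels of 1.94, 1.98 and 1.99 after POL5551 and of 1.29, 1.08 and 1.08 after G-CSF, a difference of 0.82 ± 0.25 (SE, adjusted p = 0.343), and its other probe gave -0.44. The sham levels of Rsad2, 1.83, 1.77 and 1.81, lay close to those after POL5551. Tap2, a peptide transporter of antigen presentation, had 1.01, with -0.15 at its other probe, and Gbp3, a guanylate-binding protein, 1.02. Gbp5, of the same family, had -0.54, with 0.37 at its other probe. The type I interferon gene Zbp1 was also negative, with -0.45 and -0.10 at its 2 probes. Gbp4 had levels of -3.76, -3.43 and -3.61 after POL5551 and of -7.57, -7.25 and -5.48 after G-CSF, where no array was well above background, and was at least 3.2-fold higher (adjusted p = 0.229). Of the alternatives run, it was called higher in the 1 without sham mouse 1. Under the covariate the list medians were -0.043 for type I interferon and -0.057 for interferon gamma. Within slides they were 0.294 and 0.35.

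The lists below the median of all genes hold markers of other cell types and chemokine receptors. Of 18 markers of mast cells, basophils and eosinophils 15 had a negative difference, with a median of -0.703, and their mean level per array ran from -3.72 to -3.04 after POL5551 and from -2.80 to -2.13 after 5 days of G-CSF. Il5ra, the alpha chain of the interleukin 5 receptor, had levels of -1.39, -1.41 and -0.70 after POL5551 and of 0.90, 0.41 and 0.55 after G-CSF, a difference of -1.79 ± 0.623 (SE, adjusted p = 0.381), and Fcer1a, the alpha chain of the IgE receptor, had -1.31. The mast cell protease Mcpt1 was well above background on 1 POL5551 array and 3 G-CSF arrays, and its groups overlapped. Of the 18 markers 3 were positive. Among them was Fcer1g, another chain of the IgE receptor, with 0.83 and all POL5551 arrays above all G-CSF arrays. Of 23 chemokine and egress receptors 17 were negative, with a median of -0.638. Cx3cr1, a receptor of monocytes, had at its brightest probe levels of -7.56, -7.25 and -5.12 after POL5551, none well above background, and of -3.20, -3.83 and -2.35 after G-CSF, and was at least 4.36-fold lower there (adjusted p = 0.149), but its other tested probe had a smaller difference of -1.40. Ackr1, a chemokine scavenger, had -1.68 and -3.45 at its 2 probes.

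The T and NK markers and the B lymphoid markers were also below the median of all genes. Of 22 T and NK markers 19 were negative, with a median of -0.520, and of 19 B lymphoid and plasma cell markers 13, with a median of -0.591. Their mean level per array ran from -1.30 to -0.99 and from -2.16 to -1.72 after POL5551, and from -1.01 to -0.16 and from -1.68 to -1.15 after G-CSF. The 19 lymphoid priming genes had a median of -0.186, above that of all genes, with 5 positive and 14 negative. Their median was also above that of all genes in 18 of the 26 alternatives that give 1 value per gene, but not under the covariate of genes not used by blood cells, with -0.351, or within slides, with -0.253. The members ran from Lsp1, a cytoskeletal protein of leukocytes, with 0.41, to Dntt. Dntt, the terminal transferase of early lymphoid cells, had levels of -1.10, -0.45 and -0.97 after POL5551 and of 1.09, 0.51 and 1.12 after G-CSF, with no overlap and a difference of -1.75 ± 0.445 (SE, adjusted p = 0.255). Dendritic markers had a median of -0.425. Median levels were -2.83 for the mast cell list, -2.18 for B cells and -2.0 for chemokine receptors. These lie in the second dimmest of the 4 sets of genes by level, which had a median difference of -0.438. T and NK markers, with -0.37, and dendritic markers, with -1.29, lie in the next brighter set, with -0.232. Under the covariate the medians were 0.005 for mast cells, -0.117 for chemokine receptors and -0.225 for T and NK. They were -0.080 for B cells and -0.132 for dendritic cells. Within slides the medians, in the same order, were -0.332, -0.213, -0.23, -0.082 and 0.11.

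Myeloid and erythroid markers had medians nearer to 0. Of 21 mature neutrophil markers 10 were positive, with a median of -0.013, and their mean level per array ran from -2.0 to -0.87 after POL5551 and from -1.93 to -0.84 after 5 days of G-CSF. Primary granule genes had a median of -0.023 over 11 members, with Mpo, the myeloperoxidase gene, at -0.02 and Elane, neutrophil elastase, at -0.46. Macrophage and monocyte markers had a median of -0.151, erythroid markers -0.134, megakaryocyte and platelet markers 0.068, endothelial markers -0.048 and stromal markers 0.213. The stromal mean level per array ran from -1.05 to 0.15 after POL5551 and from -1.31 to 0.21 after G-CSF, the widest range among the marker lists in both groups. Leaving out 1 array moved the stromal median between -0.396 and 0.861.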

How the data were processed

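Per the labels, total RNA of sorted marrow stem cells was made into Cy5-labelled cDNA and hybridized to single-colour Agilent arrays, 1 per mouse, with 3 mice in each of 4 groups. The deposited scanner files hold fluorescence intensity on a linear scale, made with Agilent Feature Extraction 11.5.1.1 per the submitters' processing notes. The authors' value table also holds intensity, and for 5 arrays, all within POL5551 or 5-day G-CSF, its columns follow the scanner file of another mouse of the same group. Mouse numbers are those of the scanner files.

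The log2 of the processed signal minus the array's 75th percentile was used. Outlier spots, 60 to 267 per array, were left out and repeated spots averaged. Probes detected above background on 3 or more of the 12 arrays were tested, and the brightest probe stood for its gene. limma 3.58.1 in R 4.3.3 fitted group means over 12 arrays (8 residual and 3.22 prior degrees of freedom). Tests were two-sided with Benjamini-Hochberg adjustment over 33037 genes, of which 18574 have a symbol, and a threshold of 0.05. The procedure was tested on simulated data. Probe coordinates (mm9) are the scanner files' own. Promoters are from RefSeq on GRCm38.p6.

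Named genes were up to 15 called genes per direction with a symbol, no overlap and signal above background in 1 group, completed to 8 by smallest p; 20 fixed genes; and the highest and lowest member of each list or its called members. Not all of these genes are reported here. Further genes of the lists, the Dlk1-Meg3 region, partners of named genes and genes called in single alternatives were added after their values were seen. Members and lists were chosen with earlier results of these data known. Mouse numbers do not pair the groups: deviations of same-numbered mice correlated at 0.129, -0.067 and 0.178. The alternatives, 15 of processing and 12 that leave out an array, are in the closing section.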

Additional observations from a re-analysis of the deposited data

How the results depend on the processing

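The number of calls, 20 with 0 higher and 20 lower, was 14 under quantile normalization (1 higher, 13 lower), 15 under median scaling (1 higher, 14 lower), 9 in the authors' values (1 higher, 8 lower), 5 under normexp with quantile normalization, 5 with detection required on all 12 arrays, 10 under a trended, robust variance and 62 with the 6 arrays alone. It was 0 with slide as a fixed block and 0 with the level of genes not used by blood cells as a covariate, which itself separates the groups. In the single higher calls the gene was Stap2. With the mouse number as a replicate block 6 genes were called, all of them among the 20, but the numbers do not pair the mice. Leaving out 1 array gave 0 to 94 calls, 0 to 12 higher and 0 to 82 lower. The difference in the level of genes not used by blood cells, -0.936, was -0.664 under median scaling and -0.305 under quantile normalization (exact permutation p = 0.3). The causes were not tested, apart from the pooled spread, which alone changes when a sham or 2-day array is left out. All 20 called genes kept a negative difference under every alternative in which they were tested, and none of the 20 fixed genes was called under any. Signal over background limits most of the 20 calls to bounds or to values near the floor. For 14 no POL5551 array was well above background, and only 5 were well above background on all 6 arrays. Only 3 mice per group were measured, and 1 slide holds both groups.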
